A study of Mus musculus with 16 samples.

Results

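Pairs of protein-coding mouse genes that lie on opposite strands and share exonic bases are described here from the gene annotation of build mm10 that accompanied a spleen RNA sequencing study. The rule took every gene symbol with coding segments whose lines all fell on 1 chromosome and strand, which left 20411 coding genes, and kept each plus-strand and minus-strand pair whose exons shared at least 1 base. It found 633 pairs, made up of 1228 genes, or 6.02% of the coding genes. The study sequenced polyadenylated RNA from 16 mouse spleen samples in 4 groups of 4. The labels carry the study codes NG66 and NG108, and there was a group of wild-type mice for each code. The other groups, both labelled NG66, were a triple knockout (Zfp36-/-, TNFR1-/-, TNFR2-/-) and a double knockout (TNFR1-/-, TNFR2-/-) that lacked the same pair of TNF receptors. The file analysed here holds gene models and 0 columns of sample values, so no expression level, replicate error or test between genotypes is given. Genes and pairs are the units, and because they are not replicates of a condition, values are descriptions with ranges and no p-values.

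Genes that overlap on opposite strands make RNAs that are complementary over the shared stretch. Convergent neighbours meet at their 3' ends, where the poly(A) signal directs cleavage of the transcript and where the 3' untranslated region (3' UTR) carries sites for proteins and microRNAs. Divergent neighbours meet at their 5' ends, close to promoters. Without strand information, a read lying wholly inside the shared stretch cannot be given to either gene by position alone.

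The sequences below show what the shared bases look like at coding ends, at the lower limit of the rule, at poly(A) signals and at start codons. All bases are from GENCODE M21 transcripts on GRCm38, the assembly of mm10, read on the plus strand unless a gene's own strand is named. The first set shows short stretches that code for protein on both strands, with those bases in capitals. Sycp3 and Chpt1 (chr10:88472935-88472964) share 19 such bases, which run from the stop codon of one gene to the stop codon of the other. The pair 1700028K03Rik and Glmn (chr5:107549077-107549106) shares 13, Rpn2 and 4922505G16Rik (chr2:157279315-157279344) share 13, and Brsk1 and Tmem150b (chr7:4708998-4709027) share 9.
Sycp3/Chpt1: tctctTCAATCCATGTTATTCTGAtgagtc
1700028K03Rik/Glmn: ttcttcagAGGTAGACTTTGAtttgatttc
Rpn2/4922505G16Rik: tcggaggaATGGCGCCGCCGGgtgaggcgt
Brsk1/Tmem150b: acctttactcTCATCTCCGgtgagtctctc

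The second set shows tail to tail pairs at the lower limit of the rule, with the shared bases in capitals. Kcnh3 and Mcrs1 (chr15:99242803-99242832), Ccdc64b and Thoc6 (chr17:23668605-23668634) and D930014E17Rik and BC051019 (chr7:109712167-109712196) each shared 1 base. Nfkb2 and Psd (chr19:46312074-46312103) shared 4.
Kcnh3/Mcrs1: aaaataaaagaagcTactttggaactcagt
Ccdc64b/Thoc6: aaatgcaaacaagaAaagcctaaaatttta
D930014E17Rik/BC051019: ggagagactggaagTaaaaagaattcattt
Nfkb2/Psd: ggaggcccagccaGCAAttcagagcagttt

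The third set shows poly(A) signals of tail to tail pairs, each on its own gene's strand with the signal in capitals. They are from Ogg1 (chr6:113334157-113334186) and its partner Camk1 (chr6:113334124-113334153), from Cnot3 (chr7:3661078-3661107) and Leng1 (chr7:3660107-3660136), and from Cd247 (chr1:165871124-165871153) and Pou2f1 (chr1:165865154-165865183).
Ogg1: gaacAATAAAatagaaacatttgtatggaa
Camk1: cttgtAATAAAgggaagataaaacaagaca
Cnot3: tatgAATAAAtagttttatatgacggctgg
Leng1: actgaaagcAATAAAaattcatgacgctca
Cd247: agttataAATAAAttactacatcaatttct
Pou2f1: tgtaaaacATTAAAccattttccaagtgtt

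The fourth set shows start codons, in capitals and on the gene's own strand, that lie inside the coding bases of a head to head partner. Ilk (chr7:105737136-105737165) starts inside Rrp8, and Atr (chr9:95857712-95857741) starts inside 1700065D16Rik.
Ilk: ccgggacgctgctATGgacgacattttcac
Atr: gctcggtgtcaccATGggcgaccacgggct

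Most of the pairs met at their 3' ends. By gene start and end, 493 pairs were tail to tail, 116 were head to head and 24 were nested, with 1 gene inside the span of the other. These involved 982 genes (4.81% of coding genes), 231 genes (1.13%) and 46 genes (0.225%), and a gene could be in more than 1 class. The excess of tail to tail pairs was present among neighbours. Of 4819 adjacent convergent pairs of coding genes, 483 shared exonic bases (10.02%), against 113 of 4803 adjacent divergent pairs (2.35%). The numbers of neighbours in each orientation were therefore close, and the shares differed.

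Among adjacent pairs without overlap the order of the orientations changed with distance. Fewer than 10 bases apart lay 23 convergent pairs (0.477%) and 6 divergent pairs (0.125%). Fewer than 100 bases apart lay 98 adjacent convergent pairs (2.03%) and 202 adjacent divergent pairs (4.21%). With fewer than 1000 bases between them the counts were 596 (12.4%) and 780 (16.2%). The order did not hold at longer distances. Over all adjacent pairs, with overlap counted as a negative gap, the median gap was 7322 bases for convergent and 20975 for divergent pairs. At the limit itself, 3 pairs shared 1 base and 3 shared 2 bases, while 2 adjacent pairs abutted with 0 bases between them (Ilvbl and Syde1, convergent, and Capza1 and St7l, divergent) and 4 were 1 base apart.

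**Figure D1:**
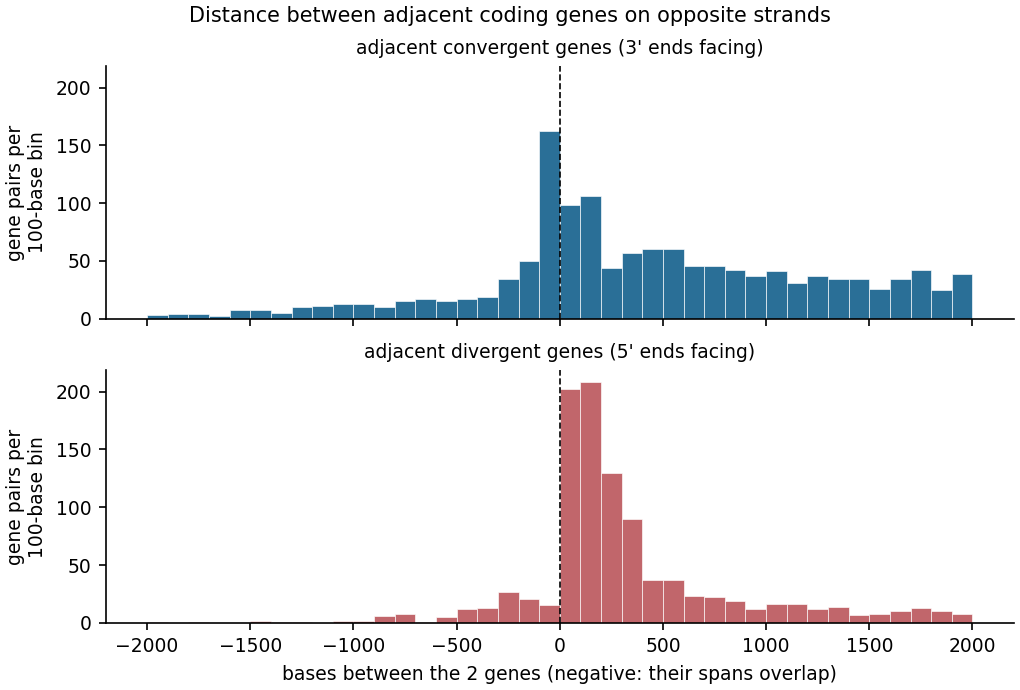
Number of adjacent coding gene pairs on opposite strands (y axis, pairs per 100-base bin) against the bases between them (x axis, negative where the gene spans overlap, shown to 2000 bases each way), for convergent pairs (upper panel) and divergent pairs (lower panel). Convergent pairs peak in the bin just below 0, whereas divergent pairs rise steeply just above 0 and few lie below it.

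How often overlapping gene spans shared exons also depended on the class. Spans overlapped in 1806 opposite-strand pairs, of which 633 (35.0%) shared exonic bases. The share was 73.7% for tail to tail spans (493 of 669), 30.6% for head to head spans (116 of 379) and 3.17% for nested spans (24 of 758). The other 734 nested pairs had no exonic base in common.

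Overlaps were mostly short. Tail to tail pairs shared a median of 190 bases (interquartile range 61 to 520, range 1 to 3536), and 130 of 493 shared 500 bases or more. Head to head pairs shared a median of 143 bases (86.75 to 224.5, range 2 to 675), and only 3 of 116 reached 500. Nested pairs shared a median of 238 bases (89.5 to 718.25, range 9 to 1810). The 95% intervals of the medians, from order statistics over pairs, were 148 to 239 for tail to tail, 124 to 168 for head to head and 96 to 710 for nested pairs. Such intervals treat pairs as random draws, which they are not. They are given as a description, and the difference between the medians was not tested. Long overlaps occurred in the tail to tail and nested classes at like shares, with 26.4% and 29.2% of pairs at 500 bases or more, against 2.59% of head to head pairs. At 1000 bases or more there were 47 tail to tail, 3 nested and 0 head to head pairs. In 411 of 493 tail to tail pairs (83.4%), 105 of 116 head to head pairs (90.5%) and 13 of 24 nested pairs (54.2%) the shared bases formed 1 uninterrupted block.

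**Figure D2:**
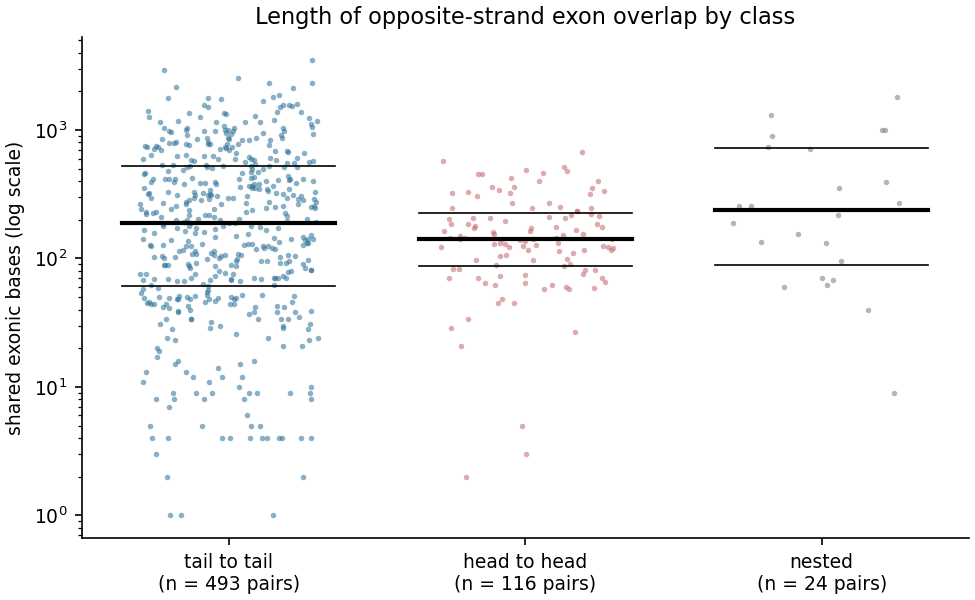
Shared exonic bases per pair (y axis, log scale) for the 493 tail to tail, 116 head to head and 24 nested pairs. Each point is 1 pair, the thick line is the median and the thin lines are the quartiles; the medians of 190, 143 and 238 bases lie close together, and no head to head pair reaches 1000 bases.

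The longest tail to tail overlap joined Nr2c2, which encodes an orphan nuclear receptor, and Mrps25, a protein of the small mitochondrial ribosomal subunit (chr6:92169523-92173058). It held 3536 bases, all in the 3' UTR of both genes, and made up 46.4% of the exonic bases of Nr2c2 and 58.3% of those of Mrps25. Cd247, the zeta chain of the T cell receptor complex, shared 2918 bases with Pou2f1, the transcription factor Oct-1 (chr1:165866655-165871153). In Cd247 297 of those bases were coding, the rest of the shared bases were 3' UTR in both genes, and the overlap took 63.4% of the exonic bases of Cd247. Heatr7b1 and Hjurp, a chaperone of the centromeric histone, shared 2554 bases. The ubiquitin ligase gene Rnf146 shared 2321 with Echdc1, and Asph shared 2302 with Clvs1. In all 5 of these pairs the larger part of the shared bases was 3' UTR on both strands.

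Among head to head pairs the longest overlap was that of Armc5 and 9130023H24Rik, with 675 bases, of which 612 were 5' UTR in both genes. Ubl5, a ubiquitin-like protein, and Fbxl12, an F-box protein, shared 573 bases of 5' UTR on both strands. Bad, which promotes apoptosis, shared 517 bases with Gpr137 (chr19:6941924-6942440), and 352 of them were coding in 1 gene and 5' UTR in the other. The neurofilament gene Ina shared 492 bases with the nucleotidase gene Nt5c2, and Gstz1 shared 476 with the mannosyltransferase gene Pomt2. For the last 3 pairs most shared bases were coding in 1 gene.

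The longest nested overlap was 1810 bases between Ccdc127 and Lrrc14b. E130003G02Rik shared 1307 bases in 11 blocks with Grin1, the obligatory subunit of NMDA receptors. In 3 nested pairs the smaller gene was exonic on both strands throughout: 9930021D14Rik in Mlst8, a subunit of both mTOR complexes (997 bases), Gm5901 in Fam160a2 (1002 bases) and Msmp in Rgp1 (743 bases). Nr2c2ap shared 899 bases with Rfxank, a subunit of the RFX complex that activates MHC class II genes, and they covered 75.9% of its exonic bases and 100% of its coding bases.

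**Figure D3:**
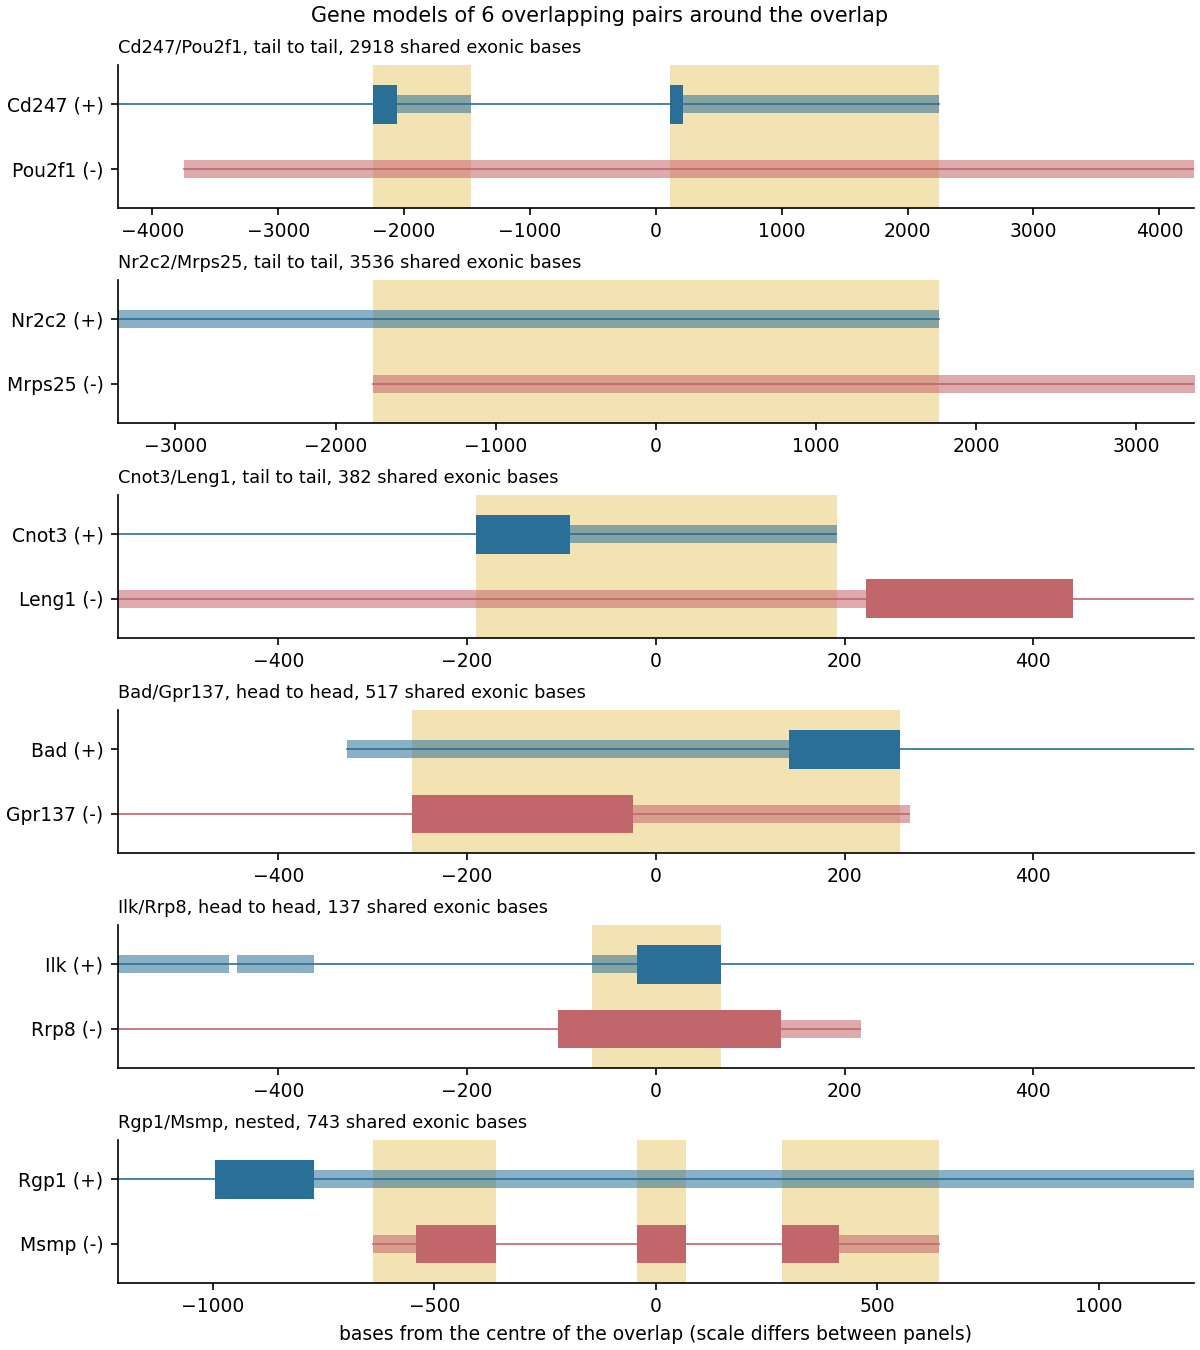
Gene models of 6 pairs around the overlap, with the x axis in bases from the centre of the overlap (scales differ between panels). Tall boxes are coding bases, low boxes are untranslated exonic bases, lines are introns, the plus-strand gene is on top and shading marks shared exonic bases; the panels show overlaps of 2918 bases for Cd247/Pou2f1, 3536 for Nr2c2/Mrps25, 382 for Cnot3/Leng1, 517 for Bad/Gpr137, 137 for Ilk/Rrp8 and 743 for Rgp1/Msmp.

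Shared bases were then sorted by their state in each gene. A base counted as coding where any transcript of the gene had it in a coding segment or stop codon. Tail to tail pairs shared 184847 bases in all, of which 73.3% were untranslated in both genes, 26.0% were coding in 1 gene and untranslated in the other, and 0.437% were coding in both. Nearly all the untranslated bases were 3' UTR facing 3' UTR (135485 bases). In head to head pairs 51.6% of 20870 bases were untranslated in both genes, 43.2% were coding in 1 gene and 1.12% were coding in both. In nested pairs only 23.1% of 10232 bases were untranslated in both genes, 67.2% were coding in 1 and 9.64% were coding in both.

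**Figure D4:**
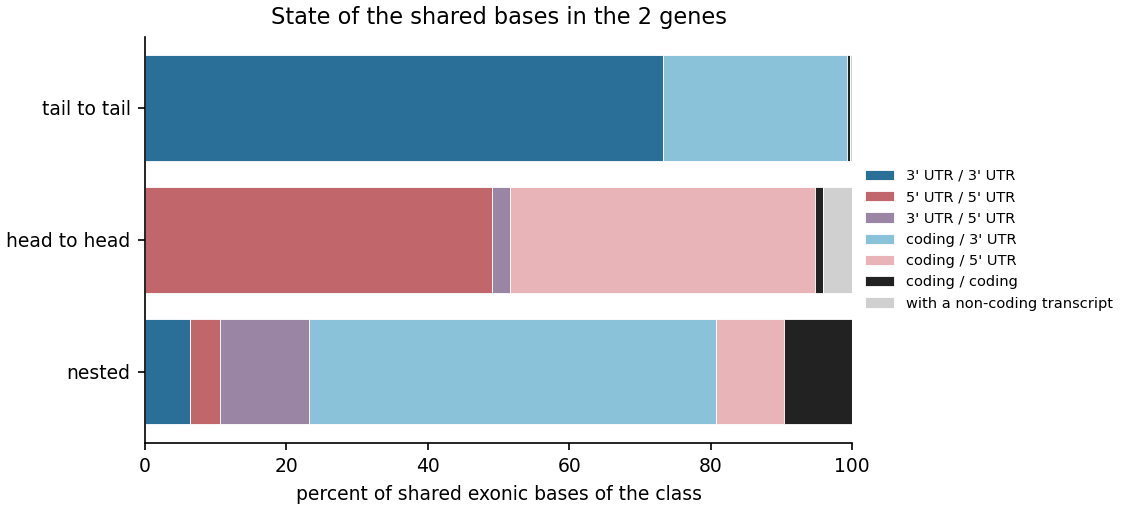
Percent of the shared exonic bases of each class (x axis) by their state in the 2 genes, for tail to tail, head to head and nested pairs. Bases that are 3' UTR in both genes make up most of the tail to tail bar, 5' UTR and coding bases share the head to head bar, and bases coding in at least 1 gene make up most of the nested bar.

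Counted by pairs, 302 of 493 tail to tail overlaps (61.3%) held only untranslated bases, against 48 of 116 head to head (41.4%) and 4 of 24 nested overlaps (16.7%). This share fell with length in tail to tail pairs, from 161 of 176 pairs under 100 bases (91.5%) to 96 of 187 pairs from 100 to under 500 bases (51.3%) and 45 of 130 pairs of 500 bases or more (34.6%). In head to head pairs it was 17 of 35 (48.6%) under 100 bases and 30 of 78 (38.5%) from 100 to under 500. In both length ranges head to head overlaps thus held only untranslated bases less often than tail to tail overlaps.

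The ends of tail to tail genes seldom fell in the coding bases of the partner. Of 986 outermost 3' ends, 746 (75.7%) lay in the partner's 3' UTR, 210 (21.3%) in a partner intron and 29 (2.94%) in partner coding bases. The partner bases that these overlaps ran over were 52.7% 3' UTR, 40.5% intron and 6.64% coding. Among these pairs, ends were more often in the partner's 3' UTR, and less often in its introns and coding bases, than the bases run over. Of 232 outermost 5' ends of head to head genes, 103 (44.4%) lay in the partner's 5' UTR, 93 (40.1%) in a partner intron and 31 (13.4%) in partner coding bases, against 26.3%, 64.7% and 7.76% of the bases run over. The difference between the shares of ends and of bases was not tested, since each end and the bases before it belong to the same gene. The rule also left out pairs whose spans overlapped without shared exonic bases, 176 tail to tail and 263 head to head. Their ends lie in partner introns, so the shares of ends in introns and in untranslated regions depend on the rule.

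**Figure D5:**
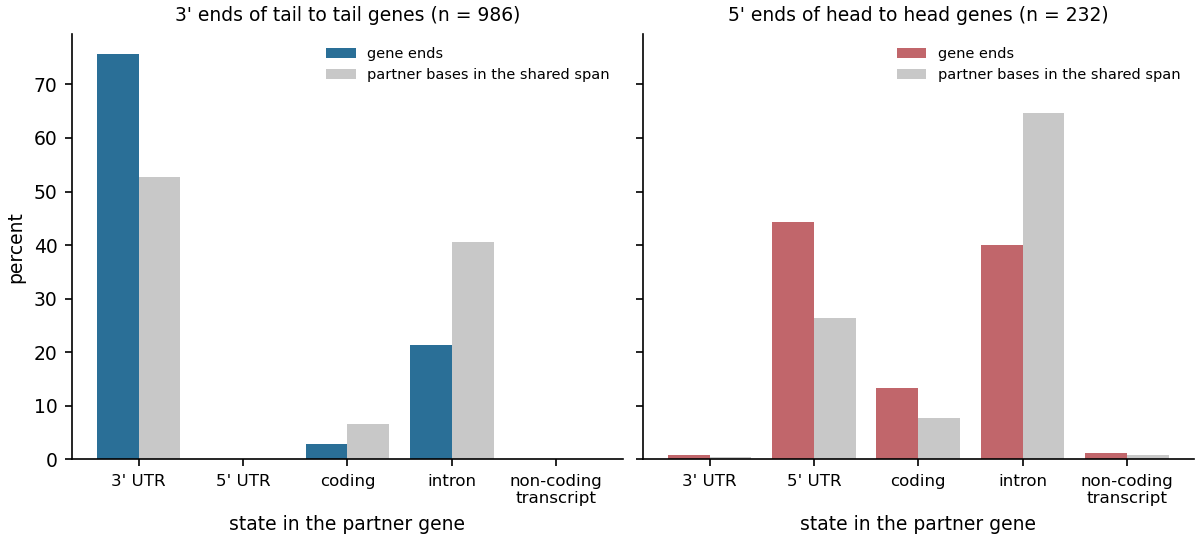
Percent of gene ends (coloured bars) by the state of the partner gene at that base, beside the percent of all partner bases in the shared span of the pair (grey bars), for the 986 outermost 3' ends of tail to tail genes (left) and the 232 outermost 5' ends of head to head genes (right). Ends in the partner's 3' UTR (left) or 5' UTR (right) are a larger share than the bases in that state, and ends in introns a smaller one. Each end counts once, whereas bases are pooled, so long spans weigh more in the grey bars. Pairs whose spans overlap without shared exonic bases are left out by the rule, and their ends lie in partner introns.

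Bases that code on both strands were rare. They occurred in 28 pairs, 14 of them tail to tail, 6 head to head and 8 nested, with 2027 bases in all, a median of 58 and a range of 2 to 282. The 5 largest were E130003G02Rik/Grin1 (282 bases), Gm6034/Gm11127 (201), the mucin genes Muc4/Muc20 (153), Antxrl/A630023A22Rik (140) and Pkd1l3/2400003C14Rik (127). For Muc20 these were 7.16% of its coding bases, and for E130003G02Rik they were 61.0%. Ilk, the integrin-linked kinase, shared 89 such bases with Rrp8, a methyltransferase of ribosomal RNA. Atr, a kinase of the DNA damage checkpoint, shared 59 with 1700065D16Rik; both start codons are printed above, and Ilk and Atr were named after their values were seen.

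The reading frames of such pairs can be set against each other in 3 ways. In 15 of 28 pairs the last positions of the codons mostly faced each other, in 7 the first positions did, and in 6 the codons were aligned, so that first positions faced last positions. These phases held 1190, 566 and 271 bases. Of the 14 tail to tail pairs 7 had last facing last, 6 first facing first and 1 aligned codons. The 6 head to head pairs were split 3 and 3 between last facing last and aligned codons. With so few pairs the order of the phases is a count only.

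For most members the overlap was a small part of the gene. It took a median of 7.66% of a gene's exonic bases (interquartile range 2.58 to 17.4%), and under 10% in 733 of 1228 genes. In 42 genes it took more than 50%, of which 36 were in tail to tail pairs, 0 in head to head pairs and 6 in nested pairs. Among them Abhd1 shared 1173 of 1356 exonic bases with Preb (86.5%), the phosphatase gene Phospho1 shared 1590 of 1910 with Abi3 (83.2%), and Hnrnph3, a splicing regulator, was overlapped over 81.4%. Coding bases were overlapped in 322 genes (26.2%), with a median of 10.4% of the coding bases of those genes, and in 7 genes all coding bases were overlapped. For unstranded libraries these shares are the part of each gene where a read lying wholly inside has 2 possible sources by position. Whether these libraries kept strand is not given in the sources used here.

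In structure the members, pooled over the classes, had more exons and somewhat more exonic bases, merged over transcripts, than coding genes in general. Their median of 10 exons (6 to 15) compares with 7 (4 to 13) over all coding genes. By class the median was 10 exons for tail to tail, 8 for head to head and 5 for nested members. The median longest 3' UTR was 764.5 bases for tail to tail, 691 for head to head and 548.5 for nested members. Over all coding genes it was 635, so nested members were below the background in both features. Median exonic length of the pooled members was 2713.5 bases against 2432. Their median gene span was shorter, 15734 bases against 16911. More than 1 transcript was annotated for 27.9% of members and 19.2% of all coding genes, and exons of all transcripts entered the rule.

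The overlap did not depend on the choice of transcript in most tail to tail pairs. In 326 of 633 pairs each gene had a single transcript. Of the 222 tail to tail pairs with more, 173 (77.9%) shared bases in every combination of their transcripts. Of the 69 such head to head pairs only 24 (34.8%) did, and in 21 fewer than 50% of the combinations overlapped. Among pairs with more than 1 transcript combination, head to head overlap thus depended on the transcripts chosen in a larger share than tail to tail overlap did.

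Poly(A) signals were read at the outermost 3' ends, as AATAAA or, failing that, ATTAAA within the last 40 mRNA bases on the gene's own strand. Of 934 tail to tail members with those bases read, 518 (55.5%) had AATAAA and 134 (14.3%) only ATTAAA, against 53.8% and 12.6% of 17451 coding genes, so the shares were near the background. The signal began a median of 23 bases before the end in both sets. Of 654 signals counted once per pair, 470 (71.9%) lay wholly within the shared bases, and only 2 touched coding bases of the partner, those of Cep290 and Zfp142. As signals were sought only within 40 bases of the ends, these counts follow in part from where the ends lie. In 221 of 446 pairs with both ends read (49.6%) both genes had a signal. In Ogg1 and Camk1, which share 63 bases, AATAAA began 26 bases before the end of Ogg1 and 25 before the end of Camk1, as printed above.

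The heptamer TATTTAT is the core of the site bound by tristetraprolin, the product of Zfp36, which the triple knockout lacks. In the last 200 mRNA bases it was present in 78 of 927 tail to tail members (8.41%), 11 of 197 head to head members (5.58%) and 1194 of 17433 coding genes (6.85%), read on the gene's own strand. Read on both strands in the middle 200 bases of single-block tail to tail overlaps, it was present in 16 of 162 (9.88%), against 14.8% of the last 200 bases of coding genes read the same way. These windows are not alike, since the last 200 bases include the last 40, where poly(A) signals were sought, and the middle of an overlap need not. The comparison therefore cannot show whether the overlaps hold more or fewer copies than the background. On the gene's own strand, in the same window, the share was higher in tail to tail members (8.41%) than in coding genes (6.85%). It was lower in head to head members (5.58%), and these differences were not tested. A match is a description and shows no binding.

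Its letters read on the other strand, ATAAATA, share most of a poly(A) signal, so a copy can lie opposite one by its letters alone. Tail to tail overlaps held 133 copies in 100 pairs, and 48 copies (36.1%), in 42 pairs, shared bases with the poly(A) signal of the partner. No background share was computed for this count. Plk3, a kinase gene and a known target of tristetraprolin, had 1 copy inside its 76 shared bases (chr4:117128700-117128729), opposite the signal of Tctex1d4. A copy of Pou2f1 (chr1:165871117-165871146) lay opposite the signal of Cd247 that is printed above, and in Cnot3, a subunit of the CCR4-NOT deadenylase, and Leng1 (chr7:3661063-3661092 and chr7:3661072-3661101) each strand had a copy. They are given on the strand of the gene named, with the heptamer in capitals.
Plk3: ttaacagacattTATTTATtgggatgtgag
Pou2f1: gatgtagtaattTATTTATaactgttatga
Cnot3: attttggaaaaTATTTATgaataaatagtt
Leng1: gtcatataaaacTATTTATtcataaatatt

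Base composition differed between the classes. Tail to tail bases that were 3' UTR in both genes had 41.8% GC, against 43.7% over all 3' UTR bases, and those that were coding in 1 gene and 3' UTR in the other had 52.2%, against 51.8% over all coding bases. Head to head bases that were 5' UTR in both genes had 63.1% GC, against 60.6% over all 5' UTR bases. Head to head bases that were coding in 1 gene and 5' UTR in the other had 64.5%, and those coding in both, 233 in all, had 66.1%. Both were above the 51.8% of all coding bases and nearer to the 60.6% of all 5' UTR bases. Nested bases that were 3' UTR in both genes, 644 in all, had 51.2%.

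Genes of the lists relevant to the study were seldom in these pairs, as were coding genes in general (6.02%). None of the 3 genotype genes and none of 14 interferon genes was a member. Of 25 known tristetraprolin targets 1 was (Plk3), and of 16 NF-kB genes 2 were. Nfkb2, the p100 precursor, shared 4 bases with Psd, and Nfkbib, an NF-kB inhibitor, shared 310 with Gm6537. Of 20 mRNA decay genes 2 were members. Cnot3 shared 382 bases with Leng1, and Upf1, the helicase of nonsense-mediated decay, shared 71 with Gdf1 and 67 with Lass1, which start at the same base and share the overlap. The circadian regulator Dbp was the only member of 11 circadian genes and shared 539 bases with the sphingosine kinase gene Sphk2.

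DNA repair genes had the highest share of these lists, 6 of 24 (25%). The helicase gene Ercc2 shared 585 bases with Klc3, of which 389 were coding in 1 gene, and the DNA ligase gene Lig3 shared 456 bases of 3' UTR with Rffl. Lig1 shared 116 bases head to head with 6330408A02Rik, and the endonuclease gene Ercc1 shared 106 with Cd3eap. The 8-oxoguanine glycosylase gene Ogg1 shared 63 bases with Camk1, and the mismatch repair gene Msh6 shared 34 with Fbxo11. The lists were compiled with earlier results of these data known and hold few genes, so these shares are counts and nothing particular to a list is drawn from them.

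Of 10 opposite-strand pairs known from textbooks, 4 shared exonic bases here and 6 did not. Dhps and Wdr83 shared 127 bases, and Surf2 shared 130 with Surf4 at its 3' end and 83 with Surf1 at its 5' end. Ercc1/Cd3eap is given above. Fgf2 and Nudt6 were 153 bases apart, Thra and Nr1d1 2823, Mutyh and Toe1 174, and Trp53 and Wrap53 1034. Cyp21a1 and Tnxb were 81532 bases apart, and Tcp1 and Acat2 17974. Tcp1, a subunit of the cytosolic chaperonin, did share 571 bases tail to tail with Acat3, a gene outside the textbook list that was named after its values were seen. In GENCODE M21, a more extensive annotation of the same assembly, Fgf2 and Nudt6 shared 640 bases and Thra and Nr1d1 shared 263, while the other 4 of these 6 pairs shared 0 there too.

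That second annotation shared most of the overlaps and added many. Both genes were matched for 486 of the 633 pairs, and 450 of those (92.6%) also shared bases between the basic coding transcripts of GENCODE. The share was 93.8% of 386 tail to tail, 88.0% of 83 head to head and 88.2% of 17 nested pairs. Among the 450, the overlap had the same length in 126 pairs, was longer in GENCODE in 236 and was shorter in 88. By the same rule GENCODE's basic coding transcripts gave 1138 pairs, of which 62.0% were tail to tail, 29.3% head to head and 8.70% nested, with 9.81% of 21951 coding genes in a pair. Nfkb2 and Psd, with 4 bases here, shared 299 there, and Cd247 and Pou2f1 shared 2918 in both annotations.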

How the data were processed

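The file used is a gene annotation for mm10 deposited by the authors. The submitters' processing notes name TopHat2 2.0.4 and build mm10. For the annotation's release, the counting and the strandedness, sources used here give nothing. The planned genotype comparison was not run, since the file has no sample values. Of 23337 gene symbols, 2829 had no coding segment and 97 lay on several chromosomes or strands and were left out. Exons of all transcripts were merged per gene. Nested pairs have 1 gene span inside the other; otherwise facing 3' ends give tail to tail and facing 5' ends head to head. Coding took precedence over 3' UTR, then 5' UTR. Coordinates are 1-based. Bases came from 141767 GENCODE M21 transcripts on GRCm38; 99.8% of 26729 deposited start codons read as ATG. For GENCODE, genes were matched by RefSeq accession or symbol, 1081 of 1228 members. The pair search was tested on simulated data. The members and lists were chosen with earlier results of these data known. Genes named were, by rule, the 5 longest pairs of each class, the 5 with most bases coding on both strands, the 5 with the largest share of the smaller gene, pairs sharing 1 base, the gene in most pairs, textbook pairs and list members; others were chosen after their values were seen. Python 3.11.15, numpy 2.4.6, scipy 1.17.1 and matplotlib 3.10.9 were used.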

Additional observations from a re-analysis of the deposited data

How the results depend on the processing

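No paired analysis was possible because the file holds no sample values. The numbers of pairs are set by the models: a minimum of 100 shared bases left 415 pairs, 317 of them tail to tail, and leaving out provisional symbols left 12 nested pairs. Alternatives chosen after seeing the data were GENCODE M21 and leaving out genes with transcripts at separate spans. All transcripts of GENCODE gave 1497 pairs (834 tail to tail, 496 head to head, 167 nested). Their medians were 344.5 bases tail to tail, 171 head to head and 284 nested. Its basic coding transcripts gave 1138 pairs (333 head to head, 99 nested), with medians of 281.5 tail to tail and 222 nested. Without provisional symbols the medians were 194 tail to tail and 171 nested. In these settings the nested median was below the tail to tail median, whereas in the main result it was above (238 against 190). Tail to tail pairs were the most numerous class in every setting run. The share of bases untranslated in both genes was 74.18% tail to tail, 52.45% head to head and 21.46% nested with the longest coding transcript only, 74.08%, 52.38% and 20.61% without provisional symbols, and 79.36%, 54.58% and 28.42% as a mean over pairs; without genes at separate spans it was 20.08% nested. The order of the classes was the same in each. The other alternatives gave 30 pair counts within 1.5 times and 18 medians within the 95% interval.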

Other observations

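Overlaps were joined in chains where a gene had more than 1 partner, at the same or at different places. Of the 595 groups of linked genes, 562 were single pairs, 29 held 3 genes, 3 held 4 and 1 held 5. The largest held Atf5, Il4i1, Nup62, Nup62-il4i1 and Tbc1d17, where the symbol Nup62-il4i1 joins those of its neighbours. A chain of 4 held Tnfrsf12a, a receptor of the TNF receptor superfamily, with Hcfc1r1, Thoc6 and Ccdc64b. There were 28 genes with a tail to tail and a head to head partner, among them Ilk (Rrp8 at its 5' end and Taf10 at its 3' end) and the nuclear pore gene Tpr. The gene in the most pairs was Gm3435, with 3, and its partners Gm3417, Gm3448 and Tcte3 have transcripts at separate places over nearly the same span, so these 3 nested pairs are uncertain.

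Members were spread over the autosomes and the X chromosome. Among these, the share of coding genes in a pair was highest on chromosome 19 (8.35%) and lowest on the X chromosome (2.64%). Provisional symbols, such as Gm or Rik names, made up 7.33% of tail to tail genes, 16.5% of head to head genes and 30.4% of nested genes, against 9.09% of all coding genes, so the nested class rests most on models with provisional names.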
